A study of Rattus norvegicus with 9 samples.

Results

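HEI-OC1 cells exposed to neomycin for 24 h were compared with cells that received phosphate-buffered saline (PBS) for the same time, across all genes of the deposited table. The comparison used 6 of the 9 RNA sequencing libraries of the study, 3 PBS and 3 neomycin, chosen by the treatment in their titles; the other 3 came from cells given cisplatin and entered the fit and a few direct comparisons. HEI-OC1 is an immortalized cochlear line, derived from the epithelium that houses the hair cells, and the labels call it hair cell-like. The cell line field of the labels carries another number in each sample, from HEI-OC1 to HEI-OC9. No transgene or allele beyond the line itself is named. The dose of neomycin was not given in the sources used here. Separate cultures are not stated for the replicates, and p-values therefore reflect the spread among 3 libraries a group, some of which may be technical.

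Neomycin is an aminoglycoside, a positively charged antibiotic that binds ribosomal RNA of bacteria and, less tightly, that of mitochondria. Sensory hair cells take it up through their transduction channels and by endocytosis, and it gathers in lysosomes, where it binds acidic phospholipids and slows their breakdown. Loss of hair cells after aminoglycosides is a known cause of hearing loss. Several pathways that sense such stress have their own gene sets. SREBP factors drive cholesterol synthesis when membrane sterol is low, TFEB and its relatives drive lysosomal genes, ATF4 drives amino acid supply when translation initiation is restrained, and Myc drives ribosome production.

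The values are FPKM, which divides the fragments on a gene by its length and by the library's mapped fragments. Library totals recovered from them lay between 27516629 and 38243593 reads in these 6 libraries, enough that 3 reads on a gene of 1 kb correspond to between 0.0784 and 0.109 FPKM. Replicates differed by more than counting noise, with chi-square values of 3.88 to 11.9 per degree of freedom between pairs. Labels and gene identifiers follow rat, although HEI-OC1 comes from mouse and mm10 is the build in the submitters' processing notes, so the level of a single gene is compared between libraries and not with that of another gene; sums and bins of levels are descriptions. Of 15 hair cell markers 12 were in the table and 1, the motor protein gene Myo6, reached 1 FPKM in PBS, while Pou4f3 and Slc17a8 were at 0 in all 6 libraries. All 9 fibroblast markers reached 1 FPKM, and their summed level was 11039 to 11492 FPKM in PBS and 10065 to 10155 FPKM in neomycin. Summed markers of leukocytes were 6.75 to 7.70 FPKM in PBS and 8.81 to 9.22 FPKM in neomycin. Those of supporting cells went from 69.8 to 76.6 FPKM in PBS to 49.7 to 51.6 FPKM, those of epithelium from 0.913 to 2.10 FPKM to 2.25 to 2.76 FPKM and those of melanocytes from 1.42 to 1.65 FPKM to 2.77 to 3.08 FPKM. Their part in the results was not tested. In bulk RNA, fewer cells of a type and less RNA per cell cannot be told apart.

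Neomycin shifted the expression of most genes by a little and of few genes by much. Of 10532 tested genes (those that averaged 1 FPKM or more across the 9 libraries, of 19608 in the table) 6973 differed from PBS at a limma adjusted p under 0.05, which is 66.2% of them. Higher genes made up 37.5% (3953 genes) and lower genes 28.7% (3020 genes), and these shares are the background against which every group of genes is read here. Genes called and at least 2-fold higher made up 1.08% (114 genes), and those at least 2-fold lower 0.646% (68 genes). The PBS and neomycin libraries did not overlap for 67.4% of tested genes (7103), so a lack of overlap at a single gene, which was also part of how the largest changes were chosen, is the usual case. The median change of all tested genes was 0.04 on the log2 scale, and of the called genes 0.34 in size. With TMM factors, a scaling that sets the typical gene to no change, 3105 genes were higher and 3867 lower, so 44.5% of calls were rises instead of 56.7%.

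**Figure D1:**
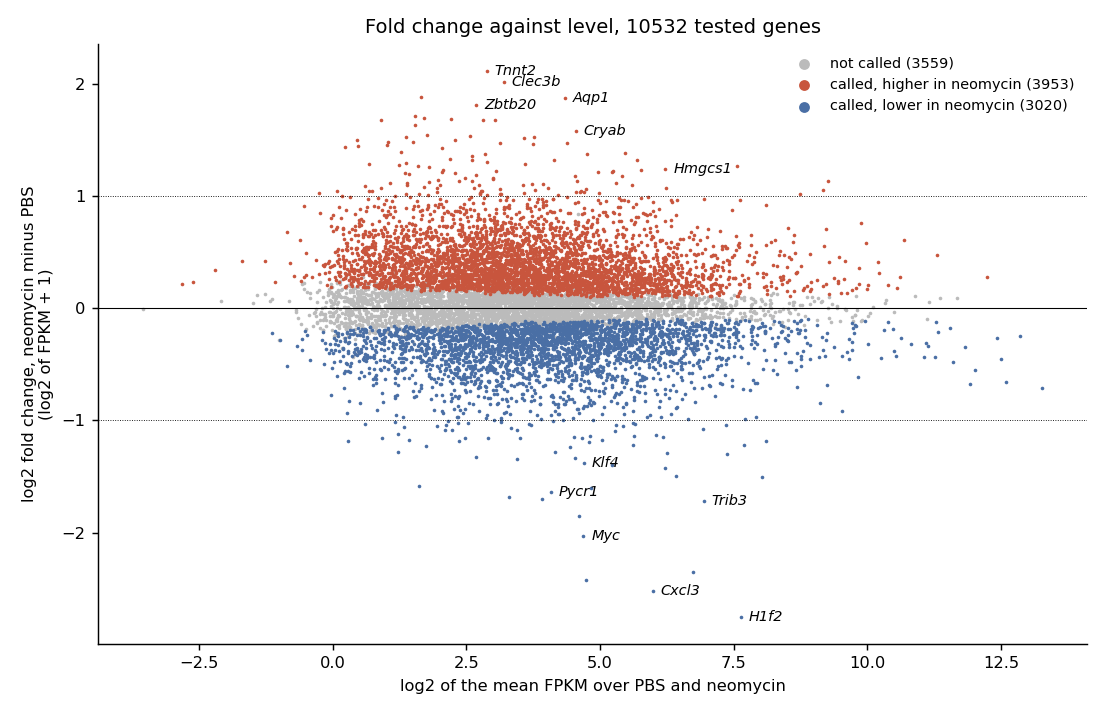
Log2 fold change (neomycin minus PBS, on log2 of FPKM + 1) of the 10532 tested genes against the log2 of their mean FPKM over the 6 libraries. Red points were called higher (3953 genes), blue points lower (3020) and grey points were not called (3559), and the dotted lines mark a 2-fold change, which few genes pass.

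Among the largest rises were genes of muscle-type contraction, water transport and protein protection. The cardiac troponin T gene Tnnt2 (Entrez gene 24837) was at 2.04, 1.99 and 2.40 FPKM in PBS replicates 1 to 3 and at 12.8, 13.0 and 11.9 FPKM in the neomycin replicates. Every neomycin library lay far above every PBS library, and the log2 fold change was 2.11 ± 0.07 (SE, n = 3 per group; adjusted p = 2.18e-10). The water channel gene Aqp1 was at 9.51, 7.98 and 7.04 FPKM in PBS and at 32.7, 29.97 and 34.3 FPKM with neomycin, without overlap (1.87 ± 0.10). Cryab, which encodes a small heat shock protein that holds unfolded proteins in solution, went from 12.5, 9.84 and 11.3 FPKM to 36.7, 34.9 and 34.4 FPKM (1.57 ± 0.08). Calponin gene Cnn1 (1.44 ± 0.09), desmin gene Des (0.98 ± 0.12) and Nes (1.11 ± 0.06), which encodes the intermediate filament nestin, rose as well. Of 18 contractile genes tested 11 rose and 2 fell, with a median change of 0.20.

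Several other large rises were of genes outside these groups. Clec3b, which encodes the plasminogen-binding protein tetranectin, was at 2.76, 3.47 and 2.94 FPKM in PBS and 16.3, 15.2 and 14.4 FPKM with neomycin (2.01 ± 0.08). Sult1a1, a sulfotransferase gene that modifies phenols, went from 1.01, 0.905 and 1.16 FPKM to 5.48, 5.54 and 5.53 FPKM (1.69 ± 0.09). Neither gene's groups overlapped. The adhesion gene Mcam (1.54 ± 0.06), the xanthine oxidoreductase gene Xdh (1.46 ± 0.10), Rasgrp3, which activates Ras proteins (1.42 ± 0.06), and the kinase scaffold gene Akap12 (1.38 ± 0.04) rose as well. Heat shock genes other than Cryab were mixed, 8 higher and 9 lower of 22 with Cryab counted. Hspa8, the constant cytosolic chaperone, rose by 0.70 ± 0.04 and Hspa4, its exchange factor, fell by 0.69.

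The largest fall was that of the linker histone gene H1f2 (Entrez gene 684681), at 366, 333 and 337 FPKM in PBS and 53.3, 49.2 and 49.2 FPKM with neomycin. The groups lay far apart, with a log2 fold change of -2.75 ± 0.05 (SE; adjusted p = 9.31e-14). H1f0, the linker histone of cells that have left the cell cycle, fell by 1.50 on the log2 scale, while H1f4 rose by 1.68 ± 0.08. Many histone genes are near-identical copies that share reads, and the replication-dependent ones make RNA without a poly(A) tail. Values such as those of H1f2 and H1f4 are therefore uncertain. Next by size was the chemokine gene Cxcl3 (Entrez gene 171551), which encodes a neutrophil attractant and was at 108, 103 and 114 FPKM in PBS and 20.6, 15.4 and 18.4 FPKM with neomycin (-2.52 ± 0.08, adjusted p = 6.15e-11). No library of one group reached the other. The secreted metalloprotease gene Adamts1 was at 17.0, 14.8 and 14.7 FPKM in PBS and 3.88, 4.33 and 4.18 FPKM with neomycin (-1.68 ± 0.07). Slc25a33, a mitochondrial carrier of pyrimidine nucleotides, fell by 1.33 and the kinase gene Plk2 fell by 1.24.

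**Figure D2:**
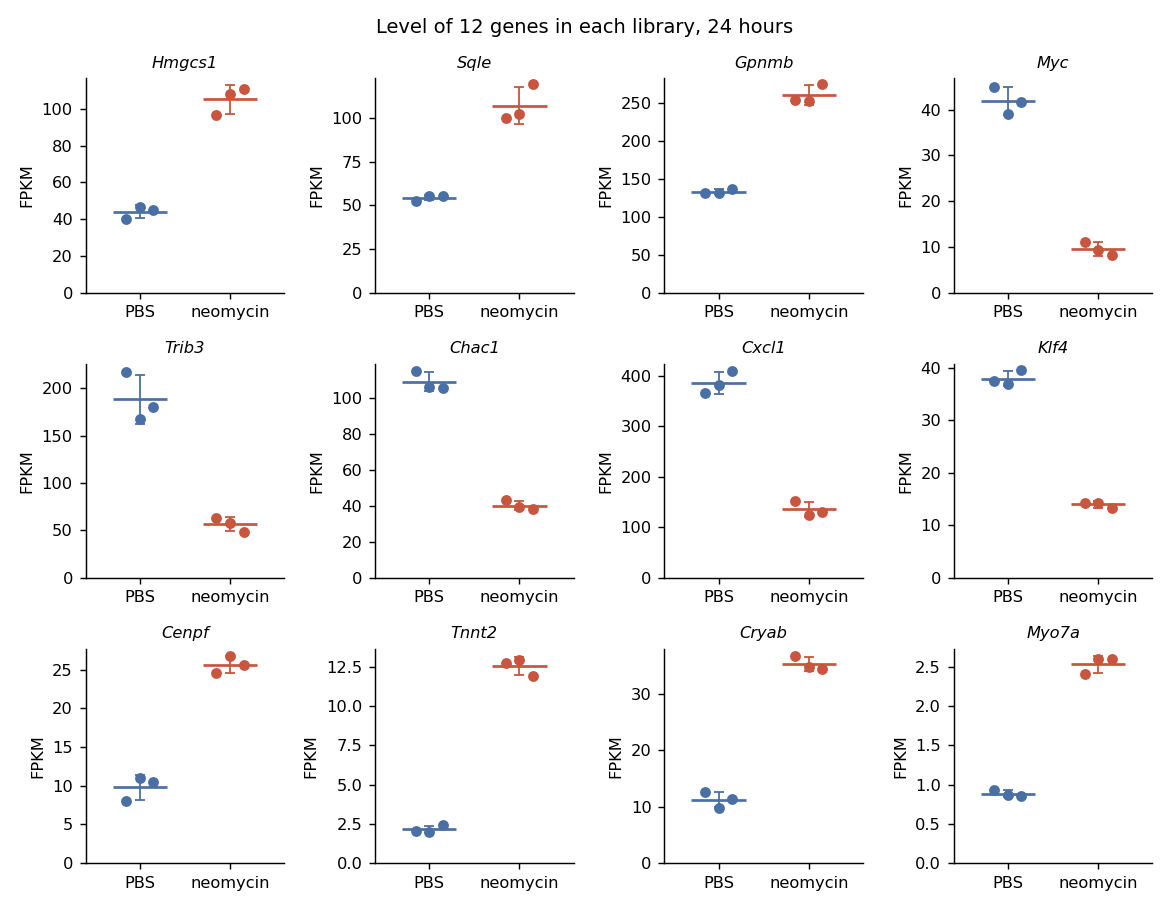
FPKM of 12 genes in each of the 3 PBS (blue) and 3 neomycin (red) libraries; points are libraries, horizontal lines the means and bars the SD, and each axis starts at 0. The 12 were drawn partly because their groups do not overlap. Among them, Myc had a mean of 41.8 FPKM in PBS and 9.55 FPKM in neomycin, and Gpnmb 133 and 261 FPKM.

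Genes for making cholesterol rose along the whole pathway. All 20 of 20 tested enzymes were higher with neomycin (19 of 20 with TMM factors), 5 of them at least 2-fold, and their median change was 0.86 against 0.04 for all tested genes. Among the early steps, which lead from acetyl-CoA to farnesyl diphosphate, Hmgcs1 (Entrez gene 29637) was at 39.9, 46.7 and 45.2 FPKM in PBS and 96.4, 108 and 111 FPKM with neomycin (log2 fold change 1.24 ± 0.06, adjusted p = 2.46e-09). Each neomycin library was more than 2 times the highest PBS library. Of the steps after farnesyl diphosphate, Dhcr7 rose by 1.22 ± 0.06, the squalene epoxidase gene Sqle by 0.96 ± 0.06 and Fdft1, the squalene synthase, by 0.14. The 20 genes took 0.322 ± 0.010% of reads in PBS and 0.606 ± 0.008% with neomycin (SD, n = 3).

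Genes for taking up sterol rose less evenly, and those for sensing it were mixed. Of 7 uptake genes 6 rose and 1 fell (median 0.43). Of 7 sensors and regulators 3 rose and 2 fell (0.03), near the shares of all tested genes. The sterol carrier gene Stard4 rose by 0.75 ± 0.07 and the lysosomal cholesterol carrier gene Npc2 by 0.61 ± 0.04, whereas the VLDL receptor gene Vldlr fell by 0.85. The 2 SREBP genes moved apart. Srebf2, the factor of the cholesterol enzymes, was at 36.0, 36.6 and 37.5 FPKM in PBS and 49.8, 48.4 and 52.6 FPKM with neomycin (0.44 ± 0.05), and Srebf1, the factor of fatty acid synthesis, went from 58.0, 50.1 and 54.1 FPKM to 39.3, 38.5 and 38.3 FPKM (-0.47 ± 0.06). Neither gene's groups overlapped. Genes of fatty acid synthesis were divided, 7 higher and 5 lower of 16, and with TMM factors 5 higher and 7 lower. None of 4 tested sterol efflux genes was called at an adjusted p under 0.05.

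The promoter of the cholesterol gene with the largest rise is shown because a CCAAT box, bound by the factor NF-Y, was frequent in these genes. The window is the 250 bases before the RefSeq start in the rat build GRCr8, and capitals mark CCAAT on either strand. The cells are of mouse origin, so their own promoters can differ from the rat windows printed here and further on.
Hmgcs1, chr2:53382054-53382303, plus strand: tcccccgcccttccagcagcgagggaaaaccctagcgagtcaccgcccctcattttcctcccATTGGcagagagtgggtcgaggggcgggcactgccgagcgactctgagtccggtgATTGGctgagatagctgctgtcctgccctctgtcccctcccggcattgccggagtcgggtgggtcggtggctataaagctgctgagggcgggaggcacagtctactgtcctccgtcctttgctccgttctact
Of 15 cholesterol genes with a window 12 held CCAAT (80.0%), against 36.8% of the 8778 tested genes with a window. Other lists, some of which fell, were above that share too, as given with the mitosis genes below. The sterol element searched as TCACNCCAC was in 0 of these 15 windows and in 0.889% of all, which says only that these letters are not in this stretch. All motifs here were searched on both strands and were chosen after the expression values were seen, and a match is a description of sequence.

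Lysosomal genes were higher as a group, by small amounts. Of 35 tested hydrolases 30 rose and 0 fell, with a median change of 0.33, and of 29 genes of the lysosomal membrane and of the proton pump 20 rose and 2 fell (0.24, or 0.15 with TMM factors). All 8 proteases tested rose, led by the cathepsin gene Ctsf (0.82 ± 0.08). The hexosaminidase gene Hexa, whose enzyme trims gangliosides, was at 123, 110 and 113 FPKM in PBS and 191, 187 and 182 FPKM with neomycin (0.69 ± 0.05, adjusted p = 4.07e-08), with no overlap. Of the pump subunits 11 of 15 rose, with Atp6v1f at 0.56, and the cystine exporter gene Ctns fell by 0.43. Gpnmb, a membrane glycoprotein gene known to rise when lysosomes are under stress, was at 132, 131 and 137 FPKM in PBS and 254, 253 and 275 FPKM with neomycin (0.96 ± 0.04). Pigment cells also express Gpnmb, and of their markers Mlana, under the filter, had a mean of 0.0261 FPKM in PBS and 0.732 FPKM with neomycin, whose part in this rise was not tested.

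The transcription factors of this network did not rise in mRNA. Tfe3 was at 32.3, 27.1 and 28.3 FPKM in PBS and 20.1, 20.1 and 19.8 FPKM with neomycin, a fall of 0.52 on the log2 scale without overlap, and Mitf fell by 0.21. Tfeb did not reach the filter (0.90 ± 0.10 FPKM in PBS and 0.93 ± 0.10 FPKM with neomycin). Genes that pass amino acid levels to the kinase mTORC1 at the lysosome were mostly higher, 14 rising and 4 falling of 23. Castor2 (Entrez gene 304410), a relative of the arginine sensor, went from 3.04, 3.87 and 3.61 FPKM to 8.28, 9.38 and 10.2 FPKM (1.19 ± 0.08), the arginine sensor gene Castor1 rose by 0.85 ± 0.07 and the GTPase gene Rragd by 0.90 ± 0.11. The mTORC1 activator gene Rheb fell by 0.39. Of 33 autophagy genes 16 rose and 7 fell (median 0.13), or 11 and 9 with TMM factors. Map1lc3a, which encodes a protein of the autophagosome membrane, rose by 0.63 ± 0.04 and the kinase gene Ulk1 by 0.38, while Atg12, Atg3 and Atg5, which act in attaching that protein to lipid, changed by -0.81, -0.47 and -0.46.

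A lysosomal promoter is shown for the CLEAR element, the site of TFEB and its relatives, searched as TCACGTGA, which contains the E-box CACGTG. Capitals mark the element.
Ctsd, chr1:206968822-206969071, minus strand: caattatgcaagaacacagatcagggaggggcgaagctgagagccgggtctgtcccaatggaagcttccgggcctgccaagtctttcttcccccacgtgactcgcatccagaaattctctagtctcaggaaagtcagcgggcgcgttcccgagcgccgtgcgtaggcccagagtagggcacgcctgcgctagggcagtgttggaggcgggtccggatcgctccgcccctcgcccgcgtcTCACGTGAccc
Ctsd, the cathepsin D gene, rose by 0.48 ± 0.04, and it is named as the hydrolase gene of largest change with a match. It was the 1 gene with a match among 24 hydrolase genes with a window (4.17%), against 1.73% of all tested genes. Cytosolic aminoacyl-tRNA synthetases, most of which fell, had a match in 1 of 17 windows (5.88%), and ribosome assembly genes in 0 of 44.

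Among genes that handle the lipids aminoglycosides bind, calls were about as frequent as among all tested genes. Of 26 phosphoinositide enzymes 13 rose and 4 fell (median 0.13), or 10 and 6 with TMM factors and 9 and 5 with quantile normalization. Pikfyve, the kinase gene for the lysosomal lipid PI(3,5)P2, rose by 0.60 and the phospholipase gene Plcb3 by 0.56, while the kinase gene Pip4k2a fell by 0.78. Of 36 genes of sphingolipid and phospholipid turnover 19 rose and 7 fell (0.17), or 15 and 9 with TMM factors (0.08). Pcyt2, the controlling enzyme of phosphatidylethanolamine synthesis, stood out, at 17.0, 16.3 and 16.5 FPKM in PBS and 37.3, 34.7 and 33.7 FPKM with neomycin (1.04 ± 0.05, adjusted p = 1.93e-09). The groups lay far apart.

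The integrated stress response was lower in most of its genes. Of 30 tested genes 0 rose and 26 fell, 10 of them at least 2-fold, with a median change of -0.76. Among the factors, Atf4 was at 360, 348 and 369 FPKM in PBS and 248, 229 and 255 FPKM with neomycin (-0.56 ± 0.05), and Ddit3, the death-associated factor CHOP, went from 176, 156 and 166 FPKM to 85.8, 73.2 and 75.4 FPKM (-1.08 ± 0.06). Neither overlapped. All 19 target genes fell. Trib3 (Entrez gene 246273), a pseudokinase gene that feeds back on ATF4, was at 218, 168 and 180 FPKM in PBS and 63.2, 57.8 and 48.7 FPKM with neomycin (-1.72 ± 0.10, adjusted p = 7.01e-09). The glutathione-degrading enzyme gene Chac1 (115, 106 and 106 FPKM against 43.1, 39.2 and 38.0 FPKM) fell by 1.42 and the asparagine synthetase gene Asns fell by 1.02.

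Genes of protein folding in the endoplasmic reticulum, the other arm of this stress network, had few rises and a share of falls near the background. Of 28 tested genes 10 fell (35.7%, against 28.7% of all tested genes) and 4 rose (14.3%, against 37.5%), with a median of -0.05. With TMM factors 15 fell and 3 rose, a setting in which 3867 of all 10532 tested genes were lower. The chaperone gene Hspa5 was at 328, 312 and 299 FPKM in PBS and 225, 211 and 209 FPKM with neomycin (-0.54 ± 0.05), without overlap. Herpud1, of the degradation complex, fell by 0.99 and the factor gene Xbp1 fell by 0.71, while Edem2, which marks misfolded glycoproteins for removal, rose by 0.58 ± 0.05.

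Amino acid supply went the way of the integrated stress response. Of 22 genes of serine, one-carbon and proline synthesis 15 fell and 5 rose (median -0.30), led by the proline enzyme gene Pycr1 at 27.8, 24.7 and 25.9 FPKM in PBS and 7.55, 8.23 and 7.39 FPKM with neomycin (-1.64 ± 0.06). Every PBS library lay far above every neomycin library. The risers were of another branch, with the folate enzyme gene Shmt1 at 0.47 ± 0.05. Of 19 amino acid carriers 10 fell and 5 rose (-0.22). Slc7a5, which imports leucine, went from 256, 218 and 232 FPKM to 101, 97.6 and 86.2 FPKM (-1.30 ± 0.06), the glutamine carrier gene Slc1a5 fell by 1.20, the cystine carrier gene Slc7a11 fell by 1.19 and the arginine carrier gene Slc7a1 fell by 1.17. Of the 20 cytosolic aminoacyl-tRNA synthetases, the enzymes that charge tRNA, 18 fell and 1, Hars1, rose (0.24 ± 0.04), with a median of -0.46. Gars1 fell by 0.78 and Iars1 fell by 0.74. Of the 17 mitochondrial synthetases 8 fell and 3 rose (-0.15).

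The promoters of Trib3 and Iars1 are shown for the CARE element, the site of ATF4, searched as TGATGNAA and marked in capitals.
Trib3, chr3:161275534-161275783, minus strand: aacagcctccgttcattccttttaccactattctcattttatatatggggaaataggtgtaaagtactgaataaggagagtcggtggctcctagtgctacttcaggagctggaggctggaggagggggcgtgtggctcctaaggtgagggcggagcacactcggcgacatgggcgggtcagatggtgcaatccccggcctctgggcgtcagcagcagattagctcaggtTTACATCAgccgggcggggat
Iars1, chr17:15193653-15193902, minus strand: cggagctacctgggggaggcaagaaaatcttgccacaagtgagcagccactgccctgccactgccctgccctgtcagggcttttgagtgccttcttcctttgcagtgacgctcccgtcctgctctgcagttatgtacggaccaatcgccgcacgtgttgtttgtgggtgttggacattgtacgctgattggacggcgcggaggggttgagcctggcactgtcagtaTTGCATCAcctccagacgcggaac
The element was in 4 of 27 windows of the stress response list (14.8%) and in 5 of 17 windows of cytosolic synthetases (29.4%), against 1.78% of all tested genes.

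Myc (Entrez gene 24577), which encodes a transcription factor of growth and ribosome production, was at 45.0, 39.0 and 41.6 FPKM in PBS and 11.2, 9.22 and 8.28 FPKM with neomycin (-2.03 ± 0.08, adjusted p = 6.00e-10). The highest neomycin library was far below the lowest PBS library. Of 12 tested genes of the Myc network 6 rose, Mycl among them, and 3 fell (median 0.18). Genes of the MXD proteins, which compete with Myc for its partner Max, were higher. Mxd4 went from 22.2, 22.2 and 22.8 FPKM to 55.6, 52.6 and 52.5 FPKM (1.22 ± 0.05), Mxd3 rose by 0.97 ± 0.07 and Mxd1 by 0.75 ± 0.09, and Max fell by 0.15. Of 48 nucleolar ribosome assembly genes 44 fell and 0 rose, with a median of -0.51. Rrp12, an exporter of ribosomal subunits, went from 7.51, 6.10 and 6.67 FPKM to 2.47, 2.98 and 2.51 FPKM (-1.09 ± 0.07), Gar1, of the pseudouridine-making particle, fell by 0.99 and Gnl3, a nucleolar GTPase gene, changed by -0.94. Of 30 genes of RNA polymerases I and III 19 fell and 8 rose (-0.28). Polr1b, the second largest subunit of polymerase I, fell by 0.66, and Maf1, the repressor of polymerase III, rose by 0.43 ± 0.06.

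The Gnl3 promoter is shown with its E-box CACGTG, the site of Myc and MXD dimers, in capitals.
Gnl3, chr16:6219783-6220032, minus strand: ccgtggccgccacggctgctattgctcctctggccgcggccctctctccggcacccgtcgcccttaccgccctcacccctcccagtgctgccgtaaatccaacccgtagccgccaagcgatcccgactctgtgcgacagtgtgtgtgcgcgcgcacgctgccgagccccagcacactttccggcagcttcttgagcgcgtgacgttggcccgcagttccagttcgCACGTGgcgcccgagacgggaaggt
An E-box was in 11 of 44 windows of ribosome assembly genes (25.0%) and in 8.72% of the windows of all tested genes. Similar shares were seen in other lists, at 4 of 17 windows of cytosolic synthetases (23.5%) and 5 of 24 windows of lysosomal hydrolases (20.8%), a list that rose.

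**Figure D3:**
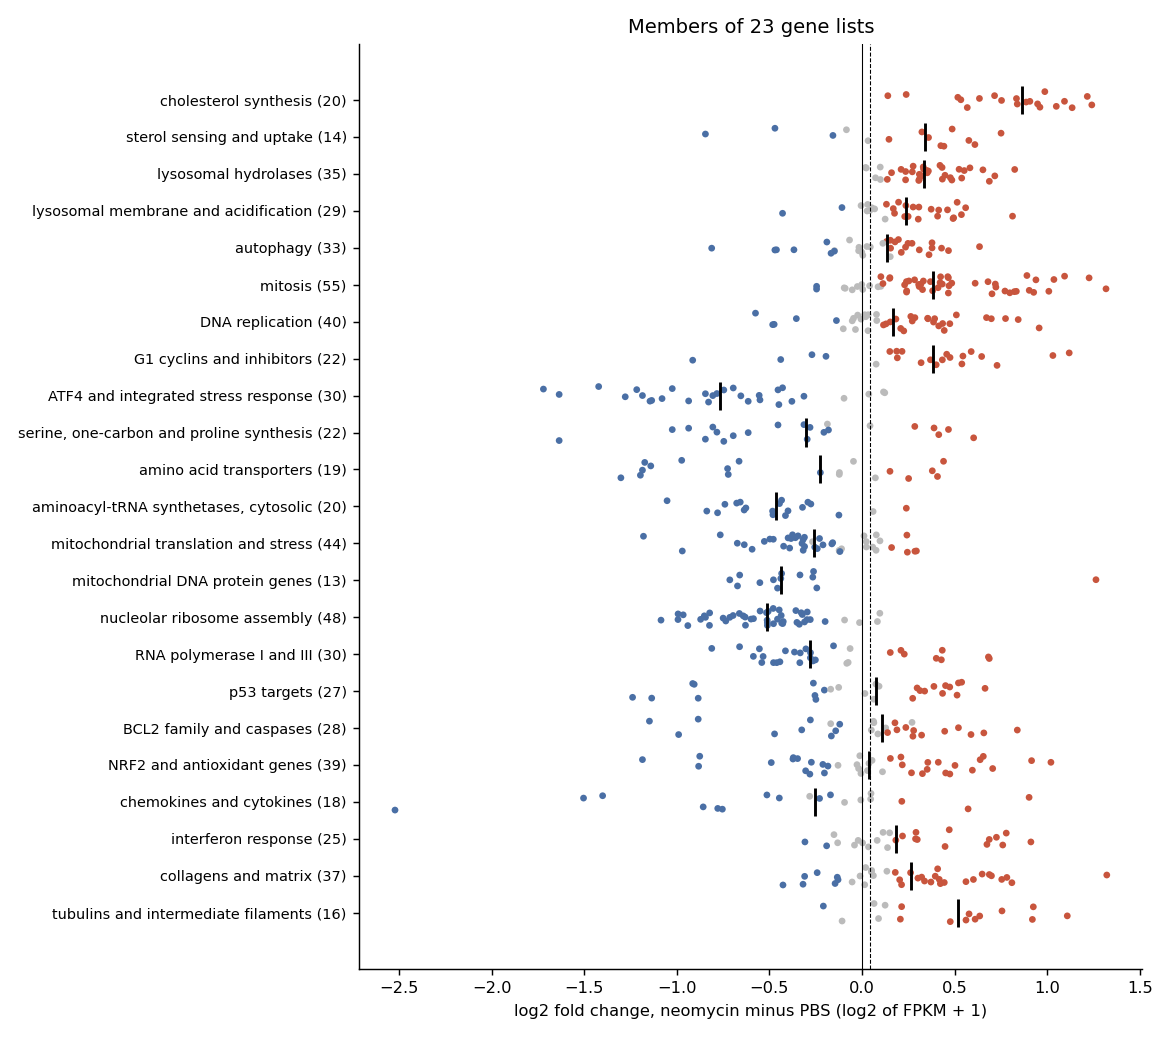
Log2 fold change of each tested member of 23 gene lists (the number tested in brackets; red called higher, blue called lower, grey not called). The thick bar is the list's median, and the dashed line the median of all tested genes, 0.04; cholesterol synthesis lies wholly to the right, and the medians of the ATF4 list, of cytosolic synthetases and of ribosome assembly lie to the left, at -0.76, -0.46 and -0.51.

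Most genes of mitochondrial DNA and of mitochondrial translation fell. Mitochondrial DNA carries 13 protein genes, and 12 of them fell (median -0.44), or 9 with quantile normalization (-0.23). The 13 took 5.51 ± 0.10% of reads in PBS and 4.02 ± 0.11% with neomycin (SD, n = 3). ND6, the 1 that was higher, lies on the other strand, and use of strand in counting was not given in the sources used here. Of 44 nuclear genes for mitochondrial translation and protein upkeep 28 fell and 5 rose (-0.26). The deposited KEGG term Oxidative phosphorylation was mixed, with 34 genes higher and 43 lower of 119 (-0.05). Genes of mitochondrial DNA and of the proton pump were not taken out of this count. In the term Citrate cycle 9 genes were higher and 12 lower of 29 (-0.02). Hspa9 (Entrez gene 291671), the import chaperone mortalin, was at 378, 381 and 381 FPKM in PBS and 169, 172 and 160 FPKM with neomycin (-1.18 ± 0.04, adjusted p = 1.25e-10). The replicates of each group lay close together and far from the other group. Among enzymes that modify mitochondrial ribosomal RNA, Mrm1 fell by 0.97 and Mrm2 rose by 0.29, and the mitochondrial transcription factor gene Tfb2m fell by 0.77.

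Most mitosis genes of the list used here were higher while Myc was lower. Of 55 mitosis genes 44 rose and 2 fell, with a median of 0.38, and of 40 replication genes 23 rose and 5 fell (0.17). With TMM factors these were 40 and 6, and 17 and 9 (0.08). Deposited KEGG terms lay nearer the share of all tested genes, 37.5% higher and 28.7% lower. In Cell cycle 66 genes were higher and 42 lower of 149 (44.3% and 28.2%, median 0.09). In DNA replication 15 were higher and 4 lower of 34 (44.1% and 11.8%, median 0.08). Cenpf (Entrez gene 257649), a kinetochore protein gene of late cell cycle, was at 7.95, 10.96 and 10.4 FPKM in PBS and 24.6, 26.8 and 25.6 FPKM with neomycin (1.32 ± 0.09). Every neomycin library was more than 2 times the highest PBS library. The proliferation marker Mki67 (1.23 ± 0.07), the spindle gene Aspm (1.09 ± 0.07) and the condensin gene Ncapg (1.04 ± 0.09) rose at least 2-fold, whereas Ccnb1, the mitotic cyclin, rose by 0.24 ± 0.04 and Cdc20, the activator of mitotic exit, fell by 0.25. Of 22 genes of the G1 phase 17 rose and 4 fell (0.39). The cyclin D1 gene Ccnd1 went from 25.8, 24.3 and 23.0 FPKM to 53.1, 53.4 and 55.5 FPKM (1.12 ± 0.05). Cell cycle inhibitors were divided, with Cdkn2d at 1.03 ± 0.06 and Cdkn1a, the p21 gene, at -0.91 ± 0.06.

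A mitotic promoter, that of Cenpf, is shown for its 3 CCAAT boxes, in capitals.
Cenpf, chr13:103760887-103761136, minus strand: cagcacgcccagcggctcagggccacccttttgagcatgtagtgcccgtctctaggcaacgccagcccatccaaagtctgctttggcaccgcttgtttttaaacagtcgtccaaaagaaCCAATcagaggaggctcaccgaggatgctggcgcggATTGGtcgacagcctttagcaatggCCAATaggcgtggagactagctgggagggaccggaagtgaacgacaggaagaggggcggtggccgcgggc
CCAAT was in 34 of 47 windows of mitosis genes (72.3%), against 36.8% of all tested genes. Lists that fell were also above this share, with 10 of 17 windows of cytosolic synthetases (58.8%) and 12 of 27 of the ATF4 list (44.4%). Lysosomal hydrolases had CCAAT in 13 of 24 windows (54.2%), and ribosome assembly genes in 12 of 44 (27.3%).

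Death and damage genes showed no common direction. Of 27 p53 targets 12 rose and 9 fell (0.07; with TMM factors 12 and 11, and the median was -0.01). Mdm2 was called lower (-0.25 ± 0.07), but its libraries overlapped, at 15.2, 15.2 and 14.1 FPKM in PBS and 14.3, 11.2 and 11.6 FPKM with neomycin. The pore gene Bax was at 103 ± 4.03 FPKM in PBS and 107 ± 8.69 FPKM with neomycin and was not called (adjusted p = 0.335). Of 28 genes of the BCL2 family and the caspases 12 rose and 9 fell, or 9 and 10 with TMM factors. The inflammatory caspase genes Casp4 (26.9, 33.0 and 36.0 FPKM against 12.9, 14.4 and 14.1 FPKM; -1.15 ± 0.09) and Casp12 (-0.99 ± 0.07) fell, as did the BH3-only gene Pmaip1 (-0.88 ± 0.06), and the survival gene Bcl2 rose by 0.84 ± 0.13. Oxidative stress genes were split as well, 17 higher and 13 lower of 39. Gstp1, a glutathione transferase gene, was at 281, 276 and 290 FPKM in PBS and 582, 567 and 573 FPKM with neomycin (1.02 ± 0.04), while the peroxidase genes Gpx1 and Prdx3 each fell by 0.88. Hmox1, the heme oxygenase gene, was at 39.0 ± 1.25 and 38.7 ± 0.385 FPKM (adjusted p = 0.814).

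Most called chemokine genes were lower and most called interferon-linked genes higher. Of 11 chemokines 7 fell and 1 rose (median -0.28). Besides Cxcl3, Cxcl1 was at 366, 383 and 410 FPKM in PBS and 153, 125 and 131 FPKM with neomycin (-1.50 ± 0.06), and Ccl20 fell by 1.40. The cytokine gene Il6 fell by 0.78. Of 25 interferon response genes 13 rose and 2 fell (0.18), or 11 and 4 with TMM factors, among them the immunoproteasome subunit gene Psmb8 (0.91 ± 0.06), the double-stranded RNA receptor gene Tlr3 (0.78 ± 0.10) and the factor gene Irf7 (0.76 ± 0.10). NF-kB subunit and feedback genes were higher in 9 and lower in 4 of 17 cases (0.20, or 0.11 with TMM factors), with the inhibitor gene Tnfaip3 at 0.42 ± 0.05 and the subunit gene Nfkb1 at -0.29 ± 0.05. In the deposited KEGG term Proteasome 22 of 44 genes fell and 9 rose, the risers led by the immunoproteasome genes Psmb8 and Psmb9 (0.69 ± 0.04).

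Signals between cells and the matrix changed gene by gene. The growth factor gene Igf2 rose from 0.921, 0.919 and 0.845 FPKM to 4.57, 4.96 and 5.14 FPKM (1.64 ± 0.07) and Gas6, the ligand of TAM receptors, by 1.17 ± 0.05, whereas Vegfa, the vascular growth factor gene, fell by 1.03 and Spry1, a brake on receptor signalling, changed by -1.59. Of 37 collagen and matrix genes 22 rose and 7 fell (0.26). The microfibril collagen gene Col6a1 went from 30.6, 28.7 and 28.4 FPKM to 75.9, 74.5 and 73.3 FPKM (1.32 ± 0.06). The main fibrillar collagen gene Col1a1 went the other way, from 2072, 1979 and 1936 FPKM to 1574, 1630 and 1595 FPKM (-0.32 ± 0.05), again without overlap. Of 20 integrin, cadherin and laminin genes 13 rose and 2 fell (0.28). The perlecan gene Hspg2 rose by 0.55 ± 0.06, and the mesenchymal cadherin gene Cdh11 fell by 0.46. Among 27 genes of the TGF-beta and BMP pathways 15 rose and 6 fell (0.18), or 9 and 6 with TMM factors (0.09), with the ligand gene Tgfb3 at 0.65 ± 0.06 and the receptor gene Acvr1 at -0.54 ± 0.06. Of 11 tubulins 8 rose and 0 fell (0.56); they share sequence, so the split between them is uncertain.

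Genes tied to the inner ear were few. The table held 21 hair cell genes, of which 4 passed the filter, and Myo7a, the stereocilia myosin gene, was at 0.933, 0.862 and 0.853 FPKM in PBS and 2.41, 2.60 and 2.60 FPKM with neomycin (0.91 ± 0.07, adjusted p = 9.27e-08). Cib2, of the transduction complex, rose by 0.55 ± 0.09, Whrn was called higher with libraries that overlapped (0.19 ± 0.08), and Myo6 was not called (0.04 ± 0.07). The transduction channel gene Tmc1 was near 0 and under the filter, so it was not tested. It was at 0.00443 ± 0.00385 FPKM in PBS and 0.0192 ± 0.0263 FPKM with neomycin (SD). Of 12 supporting cell genes 6 fell and 2 rose (-0.20). The Notch ligand gene Jag1 went from 15.8, 14.8 and 15.0 FPKM to 6.33, 6.41 and 7.10 FPKM (-1.09 ± 0.06), and S100a1 rose by 1.47 ± 0.06. Among genes of aminoglycoside uptake, the endocytic receptor gene Lrp2 fell by 0.22 and the channel gene Trpm7 rose by 0.49 ± 0.08. Clu, an extracellular chaperone gene, rose by 0.87 ± 0.05.

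Of 725 tested transcription factor genes in the deposited family column 244 rose and 223 fell. Zbtb20 (Entrez gene 288105), a zinc finger repressor gene, had the largest rise, from 1.91, 2.40 and 2.61 FPKM to 9.53, 10.9 and 11.3 FPKM (1.81 ± 0.08). The ETS factor gene Etv4 (1.08 ± 0.10), the MYB relative Mybl1 (1.06 ± 0.08) and the vitamin D receptor gene Vdr (0.90 ± 0.12) were, with Mxd4, among the other large rises. After Myc, the largest falls were those of Klf4 (37.5, 36.9 and 39.5 FPKM against 14.3, 14.4 and 13.3 FPKM; -1.38 ± 0.05), the mesenchymal factor gene Snai2 (-1.29 ± 0.06) and Atf3 (-1.28 ± 0.07). The bZIP family, which holds the ATF and CEBP genes, had 20 falls and 10 rises of 35 (median -0.19), and the HMG family 13 falls and 4 rises of 29. The E2F family, which holds activators and repressors of replication genes, had 6 rises and 3 falls of 10. Zinc finger C2H2 genes were even, 66 higher and 65 lower of 239.

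**Figure D4:**
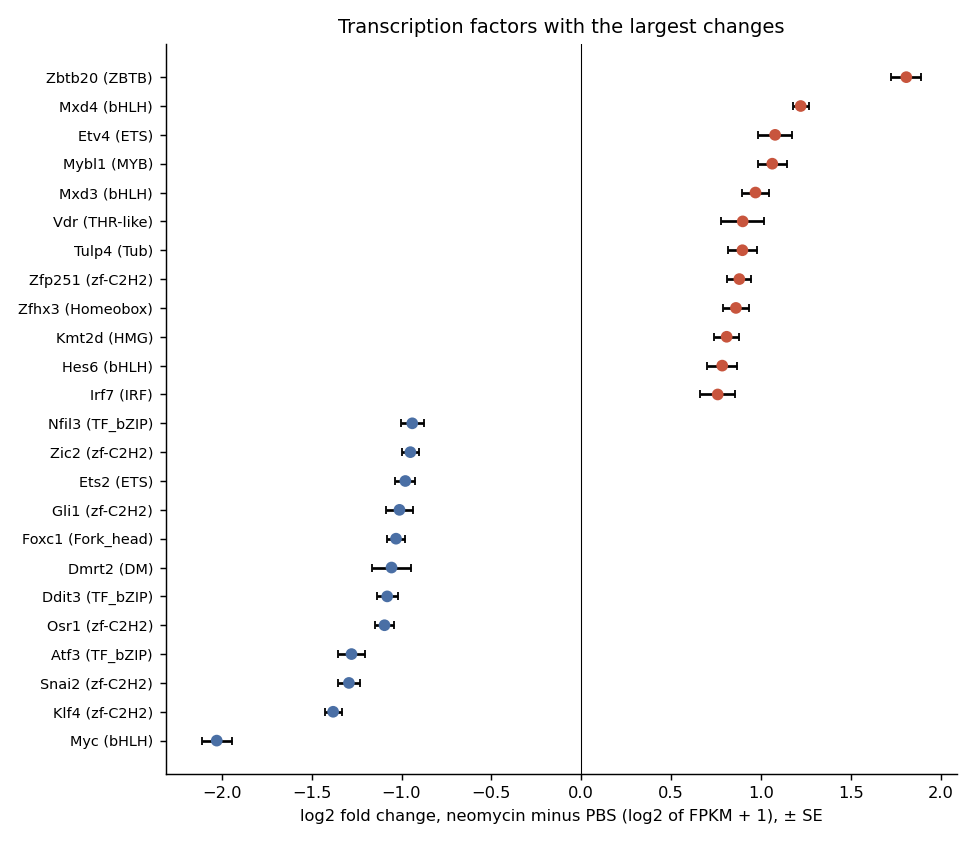
Log2 fold change ± SE (neomycin minus PBS) of 24 transcription factor genes, the 12 that rose most and the 12 that fell most, each with its deposited family in brackets. Zbtb20 at 1.81 and Myc at -2.03 lie farthest from 0.

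Among 300 deposited KEGG terms with 10 to 200 tested genes, the highest median was that of Steroid biosynthesis (0.72; 13 higher and 1 lower of 15). Glycosphingolipid biosynthesis of the ganglio series was also among the highest (0.43; 9 higher and 0 lower of 11), with the sialyltransferase gene St3gal2 at 0.67 ± 0.06. Staphylococcus aureus infection (0.59, with 10 higher and 1 lower of 12) included the complement gene C1s (0.98 ± 0.05), Selplg (1.35 ± 0.07) and RT1-DMa (1.09 ± 0.07). The disease terms behind them, Allograft rejection (0.40) among them, hold the same RT1 genes, rat class I and II genes of antigen presentation. Many of these genes are near-identical in sequence and share reads, so the terms are uncertain and repeat 1 observation. Glycosaminoglycan degradation (0.33; 12 higher and 0 lower of 15) included the hyaluronidase gene Hyal1 (1.03 ± 0.08). The lowest medians were those of Aminoacyl-tRNA biosynthesis (-0.35; 30 lower and 5 higher of 44), Ribosome biogenesis in eukaryotes (-0.27; 51 lower and 3 higher of 71) and RNA polymerase (-0.25).

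The share of genes called moved with gene length and level. In the shortest of 10 equal bins of tested genes, by the length recovered from the FPKM values, 29.9% were higher and 32.6% lower, with a median change of -0.01. In the longest bin 45.2% were higher and 18.4% lower (0.12). From the lowest to the highest of 8 bins by level the lower share went from 18.8% to 38.7%. The median length was 3499 bases for mitosis genes, 2351 bases for ribosome assembly genes, 2798.5 bases for cholesterol genes, 2099.5 bases for the ATF4 list, 5065 bases for collagens and matrix and 3151 bases for all tested genes. The part of length in the list results was not tested.

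**Figure D5:**
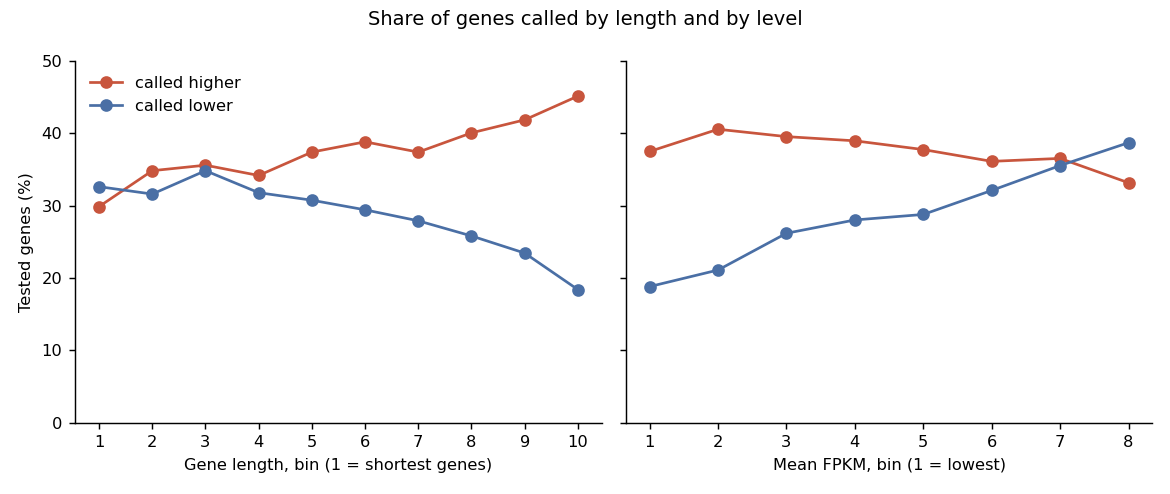
Percent of tested genes called higher (red) and lower (blue) with neomycin in 10 bins of gene length (left, shortest first) and 8 bins of mean FPKM over PBS and neomycin (right, lowest first). The lines part with length, to 45.2% and 18.4% in the longest bin, and cross at the highest levels.

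A direct comparison of neomycin with cisplatin, in the same fit, showed where the 2 drugs left the cells apart. Between these groups 81.6% of tested genes differed, 36.6% higher and 45.0% lower with neomycin. Cholesterol genes were higher than with cisplatin in 19 of 20 cases, and Idi1 was the 1 that was lower. All 48 ribosome assembly genes were lower than with cisplatin, with a median difference of -1.07. Myc was at 79.7 FPKM (mean) in cisplatin, and the difference of neomycin from it was -2.94 on the log2 scale (adjusted p = 1.16e-12). Of 25 immediate early genes 24 were lower than with cisplatin and 0 higher. For the ATF4 list the 2 drugs were mixed, 8 genes higher and 12 lower with neomycin of 30. Trib3 did not pass the test between the drugs (-0.12 ± 0.10, adjusted p = 0.265), while Atf3 (-1.40) and Ddit3 (-1.51) were lower with neomycin. The 2 drug groups share the PBS libraries as controls, so their changes against PBS are not independent.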

How the data were processed

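The authors deposited 1 table of FPKM values, per the file headers, for 19608 genes in 9 libraries. Neither the aligner nor the counting tool was given in the sources used here; mm10 is named in the submitters' processing notes. Groups and replicate numbers came from the sample titles. Per the labels' protocols, libraries were made from total RNA with an mRNA kit. No column of another sample was present (0 such columns).

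The 10532 genes whose mean over the 9 libraries reached 1 FPKM were tested on log2(FPKM + 1) with limma 3.58.1 in R 4.3.3, on the 9 libraries together with a mean for each group, a mean-variance trend and Benjamini-Hochberg adjustment over all tested genes (threshold 0.05). Fold changes are differences on this scale and are too small for genes of low level. The FPKM steps gave whole reads for 100% of the genes, within 0.001 of a read, and these reads were used for depth, for gene length and for an alternative test with voom, which called 6979 genes. In simulated data for this comparison the fit recovered 39 of 50 genes given a 1.2-fold change and 49 of 50 given a 1.5-fold change. There were 21 false calls among 10514 genes. The simulation gave every gene the same assumed spread between libraries, and far fewer genes changed than the 66.2% called here. Its false calls therefore do not measure those of the real comparison.

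The 56 gene lists (1706 entries, 1609 matched, 35 of them by an older symbol), the named genes and the tests were chosen with earlier results of these data known. Lists, deposited KEGG terms and families are described by counts and medians, with no test of the list; the median standard error of a change was 0.06. Named genes were the 20 largest rises and falls among genes with no overlap between groups and at least 5 FPKM in the higher group, the 12 largest rises and falls of transcription factors that reach 2 FPKM, up to 5 called members of each list in each direction, up to 3 of each of the 10 highest and 10 lowest KEGG terms, and a fixed set that includes cell type markers. Ccnb1, Ctsd, Fdft1 and Idi1 were named after their values were seen. Promoters came from RefSeq (GRCr8), matched by gene identifier for 8778 of the tested genes, and no coordinates of the data are given. Alternatives were another pseudocount, other filters and scalings, other fits, a stricter threshold and leaving out each replicate.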

Additional observations from a re-analysis of the deposited data

How the results depend on the processing

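The count of genes called against PBS was 6973 and stayed within 1.5 times of this under every alternative run. Leaving out 1 PBS or neomycin replicate at a time gave 6447 to 6851 genes. With a replicate block it was 7261, with 6 libraries in the fit 6648, with a mean of at least 5 FPKM 5435, and at an adjusted p of 0.01 5750. Same-numbered PBS and neomycin libraries had residual correlations of 0.30, -0.01 and 0.19, and libraries of unlike number -0.29 to 0.19. These values do not settle whether the numbers pair the samples. The main fit used no pairing, and not every library correlated best with its own number.

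Counts of 2-fold changes depended on the setting. The 114 genes called and at least 2-fold higher became 259 with a pseudocount of 0.1, 288 with voom on recovered reads and 61 with a mean of at least 5 FPKM. The 68 at least 2-fold lower became 121, 129 and, with TMM factors, 103. A larger pseudocount shrinks the change of low genes, and the stricter filter tests fewer genes; the cause of the shift with TMM factors is the scaling itself, which lowered the median change from 0.04 to -0.04. Over 15 alternatives, 7694 values of named genes were recomputed. Of these, 7535 kept their side of the threshold, and the called ones among them kept their direction. A turn in direction was not counted where a gene was called in neither fit. Another 157 kept the direction but were no longer called, 1 was newly called and 1 turned. That was COX2, at 0.00 under quantile normalization since it ranked first in each library, which that scaling sets equal. The count between neomycin and cisplatin, 8598, was 6610 with a mean of at least 5 FPKM, 8559 with TMM factors and 8539 with quantile normalization. Groups of 3 libraries, unknown doses and the unsettled species of the annotation limit these values, and FPKM gives no absolute RNA amount per cell.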

Other observations

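Genes outside the groups above also moved with neomycin. Of 16 circadian clock genes 9 fell and 4 rose, with a median change of -0.35. Nfil3, a repressor of the clock output, was at 26.4, 23.8 and 23.9 FPKM in PBS and 13.6, 12.1 and 11.5 FPKM with neomycin (log2 fold change -0.94 ± 0.06), the heme receptor gene Nr1d1 fell by 0.61 and Ciart by 0.90, while the nuclear receptor gene Rora rose by 0.61 ± 0.08. Of 38 chromatin genes 14 rose and 11 fell, and with TMM factors 10 rose and 14 fell. Kmt2d, a histone methyltransferase gene of enhancers, rose from 3.63, 4.08 and 3.96 FPKM to 7.01, 7.55 and 8.18 FPKM (0.81 ± 0.07), and Ezh2, which places the repressive mark on histone H3, fell by 0.57.

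Of 30 glycolysis and hypoxia genes 15 rose and 10 fell (median 0.17, or 0.09 with TMM factors). The phosphofructokinase gene Pfkp rose by 0.72 ± 0.04 and the hypoxia-linked carbonic anhydrase gene Car9 by 0.85 ± 0.05, while the hexokinase gene Hk2 was at 10.8, 9.98 and 9.997 FPKM in PBS and 6.72, 7.28 and 5.73 FPKM with neomycin (-0.58 ± 0.07).

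Of 165 tested non-coding genes 48 rose and 59 fell. Evi2b, a membrane protein gene under the filter, was at 0.152, 0 and 0 FPKM in PBS and 1.70, 1.28 and 0.757 FPKM with neomycin. No test was run on it.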
